A study of Mus musculus with 24 samples.

Results

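The strongest Rev-erbα borders of mouse liver that lie away from the binding sites of fat and brain were described here. The deposited list of ChIP-exo borders held 245360 positions, 245086 of them on chromosomes 1 to 19 and X. The members were chosen by the authors' Signal and by position: the 5000 borders of the highest Signal on these chromosomes were taken, and the 3788 that lay more than 1 kb from the centre of every listed peak of epididymal white adipose tissue (eWAT) and of brain were kept. The other 1212 of the 5000 lay within 1 kb of such a centre (495 of eWAT only, 403 of brain only, 314 of both) and served for comparison. Signal is the authors' measure of border height on a scale the file does not state, and it is used below only to rank and describe.

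Of 24 samples in 16 groups, those of 3 groups were used. Liver ChIP-exo (2 libraries), eWAT ChIP-seq (2 libraries) and brain ChIP-seq (ventral tegmental area, 1 library) all came from wild-type C57BL/6J mice at zeitgeber time 10, 10 h after lights on, and all used an antibody to Rev-erbα. Each group was represented by 1 list (9016 eWAT peaks and 10687 brain peaks), so no value had a spread between replicates and sequencing depth was unknown. The p-values below therefore compare sites within these lists and say nothing of variation between animals.

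Rev-erbα, encoded by Nr1d1, is a nuclear receptor of the circadian clock that represses transcription by recruiting the NCoR corepressor with the histone deacetylase HDAC3. It can bind DNA through its own response element, an AGGTCA half-site with an AT-rich extension, and it can also be held at chromatin by other factors. Hepatocytes are characterised by a set of transcription factors that includes HNF6 (Onecut1), HNF4α, FOXA proteins and C/EBP proteins. In ChIP-exo, exonucleases trim each DNA strand up to the crosslinked protein, so a factor leaves 1 border on each strand, and the distance between these borders reflects the stretch of DNA it covers.

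The sequences that carry the main pattern are printed first. Each is a stretch of the mm9 (NCBIM37) reference, read 5′ to 3′ along the strand of the strongest border of a site and reaching 50 bases to each side, with the border at base 51 and the motif in capitals, so that the protected side runs from base 51 to the right. The first 3 are among the strongest sites with the HNF6 motif ATCAATA, or its reverse complement. In these 3 the motif begins 11 bases past the border where it reads along the border's strand (Ndrg1) and 8 bases past it where it lies on the other strand (St3gal4, Gm6657). The Ndrg1 and Gm6657 sites are intergenic, 44145 and 210196 bp upstream of the nearest start, and the St3gal4 site is intronic, with Signals of 15.5, 12.3 and 13.8. The Gm6657 sequence was added to the pair given by the naming rule after its values were seen.
Ndrg1, chr15:66845297-66845397, minus strand: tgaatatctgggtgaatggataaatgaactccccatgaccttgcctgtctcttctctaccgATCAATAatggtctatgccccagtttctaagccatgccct
St3gal4, chr9:34935293-34935393, plus strand: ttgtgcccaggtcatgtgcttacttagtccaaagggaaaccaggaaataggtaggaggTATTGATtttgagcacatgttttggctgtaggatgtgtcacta
Gm6657, chr12:79087915-79088015, minus strand: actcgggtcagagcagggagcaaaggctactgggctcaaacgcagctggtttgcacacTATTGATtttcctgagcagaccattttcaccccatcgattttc

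The next 4 are the strongest sites with the FOXA motif TGTTTAC and with the C/EBP motif TTGCNNAA, in which N is any base. In the Nr3c2 sequence FOXA begins 8 bases past the border. In the Slc45a1 sequence it begins at -2, 2 bases before the border, on the other strand. Both C/EBP matches begin 11 bases past the border, that of Mpp6 on the other strand. The Slc45a1 and Mpp6 sites are intergenic and the Nr3c2 and Ubap1 sites intronic, the former pair with Signals of 16.6 and 19.5 and the latter with 12.4 and 21.4.
Slc45a1, chr4:150059428-150059528, plus strand: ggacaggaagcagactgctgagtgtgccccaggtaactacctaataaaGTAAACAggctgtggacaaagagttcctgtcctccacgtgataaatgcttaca
Nr3c2, chr8:79568829-79568929, plus strand: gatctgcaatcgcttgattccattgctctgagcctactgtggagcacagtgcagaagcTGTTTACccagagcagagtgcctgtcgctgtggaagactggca
Ubap1, chr4:41315381-41315481, plus strand: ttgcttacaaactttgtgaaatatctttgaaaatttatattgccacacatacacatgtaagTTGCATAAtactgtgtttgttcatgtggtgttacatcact
Mpp6, chr6:49992162-49992262, plus strand: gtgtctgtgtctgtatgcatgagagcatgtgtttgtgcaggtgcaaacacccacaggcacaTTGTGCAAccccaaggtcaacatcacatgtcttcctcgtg

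The E-box CACGTG, bound by the clock activators CLOCK and BMAL1 and by USF proteins, and the D-box TTANGTAA, bound by DBP, TEF, HLF and the repressor NFIL3, are shown at 3 strong sites, which were also picked after their values were seen. The E-box near Rnf43 begins 23 bases past the border. Both D-boxes, at Klf13 and 4732465J04Rik, begin 11 bases past it and lie on the other strand. The Rnf43 and Klf13 sites are intronic (Signals 17.0 and 11.7) and that of 4732465J04Rik is intergenic (10.8).
Rnf43, chr11:87515872-87515972, minus strand: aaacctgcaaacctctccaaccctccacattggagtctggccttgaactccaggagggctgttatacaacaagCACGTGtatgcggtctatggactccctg
Klf13, chr7:71041775-71041875, plus strand: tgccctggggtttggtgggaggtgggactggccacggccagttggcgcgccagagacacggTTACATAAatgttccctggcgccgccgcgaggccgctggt
4732465J04Rik, chr10:95236217-95236317, plus strand: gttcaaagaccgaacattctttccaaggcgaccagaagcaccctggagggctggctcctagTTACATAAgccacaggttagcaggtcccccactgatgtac

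The last 4 hold full Rev-erb elements, shown because these are few. The first pair is the strongest with the monomer element (RORE), and the second pair is the only one with RevDR2, in which 2 half-sites follow each other. The site labelled 2810007J24Rik in the gene models is that of Sult2a8, a liver sulfotransferase. Its sequence and that of Tmem45a both also hold TATTGAT, the HNF6 motif on the other strand. In the Tmem45a sequence TATTGAT begins with the last base of the marked element and occurs again further on. Their Signals, 7.05, 5.02, 4.23 and 2.39 in the order shown, are lower than those above.
2810007J24Rik, chr7:15023950-15024050, plus strand: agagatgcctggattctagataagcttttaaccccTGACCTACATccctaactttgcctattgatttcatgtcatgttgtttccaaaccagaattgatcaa
Tmem45a, chr16:56848477-56848577, plus strand: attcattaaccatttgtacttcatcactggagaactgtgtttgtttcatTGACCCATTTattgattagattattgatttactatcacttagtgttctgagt
Prps1, chrX:137028200-137028300, plus strand: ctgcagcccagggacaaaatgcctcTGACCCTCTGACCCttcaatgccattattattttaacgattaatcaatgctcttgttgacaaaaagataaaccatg
Optn, chr2:4959283-4959383, minus strand: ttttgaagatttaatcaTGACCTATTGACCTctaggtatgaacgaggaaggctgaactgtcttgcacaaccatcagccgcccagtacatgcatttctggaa

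The members fell on both strands alike, with 1937 on plus and 1851 on minus. Their Signal ran from 2.0304 to 257.359 with a median of 2.69, against a median of 2.77 and a maximum of 65.2 in the 1212 strong borders near fat or brain peaks. At the limits of the rule, border 5000 had a Signal of 2.0301 and the next border one of 2.0296. The member nearest to a peak centre lay 1001.5 bp away and the nearest border left out lay 986.5 bp away. Most were far from this limit: 166 members lay 1 to 2 kb from a peak, the median distance was 27099.5 bp and 2774 (73.2%) lay over 10 kb away. Neighbouring members within 100 bp of each other were merged into 2662 sites, placed at their strongest border, of which 1878 held 1 member, 516 held 2 and 268 held 3 or more, up to 6. The strong borders near peaks gave 811 sites.

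The highest Signals lay in repeated sequence. Of the 20 strongest sites, 11 had a central 31 bases that occur more than once in the genome or lay within 10 kb of such a site, and these repeat-linked sites numbered 55 (85 borders) in all. The largest group spanned 13 borders at chr2:98502461-98507315 beside the gene models Gm10800 and Gm10801, with the maximum Signal of 257.359, and another 12 borders spanned chr9:3000097-3035817. These regions gave 8 of the 11 sites, near Gm10800, Gm10801, Gm10720 and Gm10722, and the other 3 lay nearest to Pak3 (57.2), Chl1 (25.2) and 1700012B15Rik (20.4). Outside such sequence the maximum was 54.7, in the intergenic site near Gm5614. Repeat-linked borders also had a higher median of the authors' p-value, 0.0259 against 0.0116 in the other members. Without all such sites the odds ratio of HNF6 was 7.58, where the full set below gave 7.54.

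The question of the first comparison was which DNA motifs mark strong liver sites away from the sites of fat and brain, and the clearest was HNF6. ATCAATA, the recognition sequence of the liver factor HNF6, lay within 50 bp of 532 of 2662 sites (20.0%, 95% Wilson interval 18.5 to 21.5%), against 26 of 811 strong sites near fat or brain peaks (3.21%) and 1.09% of windows of the same length 1000 bp to each side of the members. The odds ratio was 7.54 (95% interval 5.04 to 11.7, two-sided Fisher's exact test, adjusted p = 2.19e-36 over 44 tests). Clock-related motifs went the other way. The E-box was present at 274 sites (10.3%) against 235 (29.0%) near fat or brain peaks (odds ratio 0.281, interval 0.230 to 0.344, exact test, adjusted p = 1.20e-33), although it was still more frequent than the 1.47% of the members' flanks.

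Other motifs, those of promoters and of the clock among them, were also less frequent among the members. The D-box was found at 131 sites (4.92%, flanks 0.995%) against 68 (8.38%), an odds ratio of 0.566 (exact test, adjusted p = 0.00274). The GC box GGGGCGGGG of SP1 was found at 8 sites (0.301%, flanks 0.301%) against 42 (5.18%), with an odds ratio of 0.0552 (exact test, adjusted p = 1.05e-18). The ETS motif CCGGAAG (15 member sites against 19), the NRF1 motif GCATGCGC (13 against 13) and the CTCF motif (1 against 5) also had lower shares. Their adjusted p-values in the exact test were 3.52e-04, 0.0177 and 0.0177, that of CTCF resting on these few sites. Of the 22 motifs searched on both strands, these 7 passed an adjusted p of 0.05 in this comparison, HNF6 upward and the others downward.

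Of the motifs of other liver factors, those of C/EBP, FOXA and HNF4 were above their flanks at the members. None of these showed a difference between the sets that passed. The motif of HNF4 was rare and that of HNF1 was not found. C/EBP was found at 15.6% of member sites and 15.5% of the others, an odds ratio of 1.00 with an interval from 0.805 to 1.26, and in 3.68% of the members' flanks. FOXA was found at 7.33% against 5.30% (flanks 1.503%, exact test, adjusted p = 0.133), with an odds ratio interval of 0.999 to 2.03. The HNF4 motif CAAAGTCCA was found at 20 member sites (0.751%, flanks 0.0939%) and 3 of the others (0.370%, exact test, adjusted p = 0.623). The motifs of NF1 (21 member sites, 0.789%, flanks 0.0188%) and of the glucocorticoid receptor (28, 1.05%, flanks 0.0563%) were also rare but above their flanks. Each was at 1.11% of the others, and neither difference passed. The HNF1 motif was found at 0 of 2662 and 0 of 811 sites (Wilson upper bound 0.144% for the members). It was also found in 0 of the members' 5324 flank windows, so its absence from the sites cannot be read as a depletion. The nuclear receptor half-site AGGTCA can also be part of the RevDR2 and DR1 motifs, though the Prps1 and Tmem45a elements printed above hold TGACCC instead. This half-site was found at 14.5% of member sites against 11.7% of the others (flanks 6.29%, exact test, adjusted p = 0.133). Full Rev-erb elements were rare in both: the monomer element was found at 24 member sites (0.902%, flanks 0.432%) and 14 of the others (1.73%), and RevDR2 at 2 and 4 sites. Neither difference passed the exact test (adjusted p = 0.141 and 0.0925).

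Base composition and promoter distance moved with this division. The median GC content of the searched stretch was 46.5% in member sites and 54.5% in the sites near fat or brain peaks. Within sites of 45 to 55% GC, an alternative added after seeing the data, HNF6 kept an odds ratio of 5.21 (exact test, adjusted p = 1.26e-06), the E-box ratio was 0.550 (adjusted p = 0.0112), and SP1, the D-box, ETS and NRF1 no longer passed (adjusted p = 0.894, 0.0860, 0.188 and 1). Over sites more than 1 kb from every start, HNF6 had an odds ratio of 6.20 and the E-box one of 0.355, and the D-box, ETS, NRF1 and CTCF differences did not pass (exact test, adjusted p = 0.0656, 0.0801, 0.0656 and 0.0801). The HNF6 ratio also moved with the distance that separates the sets, to 2.65 at 10 kb and 11.7 at 500 bp. At 10 kb the D-box, ETS, NRF1 and CTCF differences did not pass (exact test, adjusted p = 0.0519, 0.0519, 0.0765 and 0.317).

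**Figure D1:**
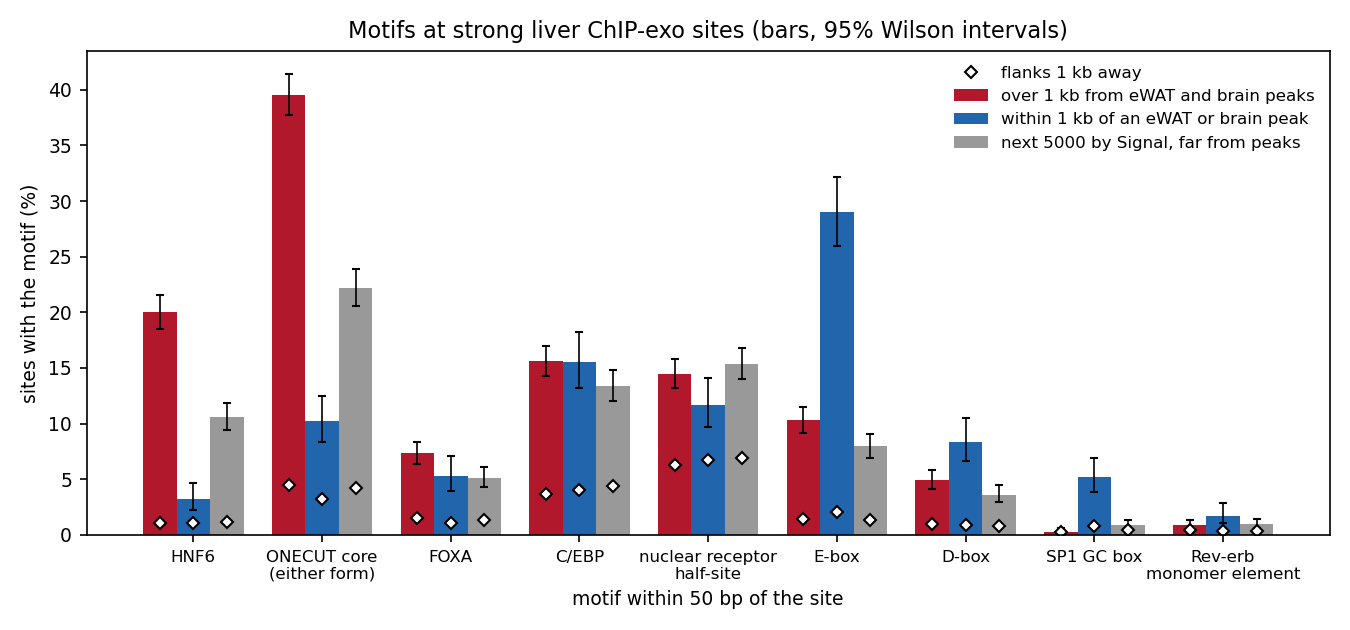
Share of sites (%, bars, with 95% Wilson intervals) holding each motif within 50 bp, for member sites, for strong sites within 1 kb of an eWAT or brain peak and for the next borders by Signal far from peaks; diamonds give the share in flanks 1 kb away. HNF6 stands at 20.0% in the members against 3.21% near fat or brain peaks, and the E-box at 10.3% against 29.0%.

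The members were then set against weaker borders among the 5000 that come next by Signal (2424 sites). These lay more than 1 kb from fat and brain peaks and from every border of the 5000 strongest, members or not. HNF6 was again more frequent in the members, 20.0% against 10.6% (odds ratio 2.11, with an interval of 1.79 to 2.48, and an adjusted p of 2.28e-19 in the exact test). FOXA lay at 7.33% of member sites and 5.12% of weaker ones, an odds ratio of 1.47 with an adjusted p of 0.00737 (exact test). The E-box lay at 10.3% and 7.96%, an odds ratio of 1.33 with an adjusted p of 0.0181 (exact test). SP1 was lower, with an odds ratio of 0.329 (exact test, adjusted p = 0.0217). With the search limited to 25 bp the FOXA, E-box and SP1 differences no longer passed the exact test (adjusted p = 0.133, 0.362 and 0.0979), while that of HNF6 did (odds ratio 2.35). Over sites more than 1 kb from every start, the E-box and SP1 differences did not pass either (exact test, adjusted p = 0.0656 and 0.834). Within sites of 45 to 55% GC the FOXA difference did not pass (exact test, adjusted p = 0.344). Of 5 alternatives, FOXA and the E-box each missed the threshold in 2 and SP1 in 4.

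The hexamers ATCAAT and ATCGAT, shorter forms of the ONECUT recognition sequence, were looked at after the values of HNF6 were seen and carry no test. ATCAAT, which ATCAATA contains, lay at 819 sites (30.8%, flanks 4.11%). ATCGAT lay at 300 sites (11.3%, flanks 0.451%). One or both were present at 1053 of 2662 member sites (39.6%, interval 37.7 to 41.4%), at 83 strong sites near fat or brain peaks (10.2%) and at 537 weaker far sites (22.2%).

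The other motifs had lower shares at HNF6 sites, a description with no test. FOXA was found at 3.38% of the 532 HNF6 sites and 8.31% of the other member sites, C/EBP at 10.2% against 16.9%, and the E-box at 4.51% against 11.7%. Of 6 motifs (HNF6, FOXA, C/EBP, E-box, D-box and the half-site), 1219 sites held 1, 12.9% held 2 or more and 1100 held none. Some 739 sites (27.8%) held none of these and neither hexamer. Among all member sites, with or without these motifs, 26 held the Rev-erb monomer element or RevDR2.

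Border pairs gave a view of what was protected. A partner, meaning a listed border of any Signal on the opposite strand 5 to 60 bp away on the protected side, was present at 1837 member sites (69.0%) against 463 of the sites near fat or brain peaks (57.1%), an odds ratio of 1.67 (1.42 to 1.97, two-sided Fisher's exact test, adjusted p = 5.49e-10 over 2 tests). It was present at 53.1% of the weaker far sites. When only borders with an authors' p-value of at most 0.01 were ranked, the odds ratio fell to 1.08 and no longer passed the exact test (adjusted p = 0.354).

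The partner distances of the members were concentrated at 2 values. Of 2666 members with a partner, 602 (22.6%) had it exactly 25 bp away and 256 (9.60%) exactly 29 bp away. The class of 24 to 26 bp held 944 members (35.4% of those with a partner, against 16.9% of the strong borders near fat or brain peaks), and the class of 28 to 30 bp held 381 (14.3% against 24.8%). A smaller maximum lay at 12 bp, with 77 members. These shares are a description, since both borders of a pair can be members.

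The classes of distance differed in their motifs. In the 24 to 26 bp class, 45.4% of members had HNF6 within 50 bp and 84.3% had ATCAAT or ATCGAT. In the 28 to 30 bp class HNF6 was at 2.10%, C/EBP at 32.0% and the D-box at 18.4%. In this class C/EBP and the D-box were at 30.8% and 37.9% of the strong borders near fat or brain peaks. They were at 25.6% and 20.0% of the weaker far borders. In the class of 11 to 13 bp (141 members), FOXA was at 28.4% and the half-site at 21.3%. There they were at 20.0% and 13.3% of the 30 borders near peaks, and at 21.25% and 28.75% of the 80 weaker far ones. Among the 1122 members without a partner, 11.3% had HNF6. The Rev-erb monomer element was at 1.38% in the 24 to 26 bp class and absent from the 381 members of the 28 to 30 bp class. The strong borders near fat or brain peaks differed within the same 24 to 26 bp class, where 44.4% had either hexamer and 37.1% an E-box. The weaker far borders of that class had either hexamer at 71.3% and HNF6 at 37.2%, so these class motifs were not particular to the members.

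**Figure D2:**
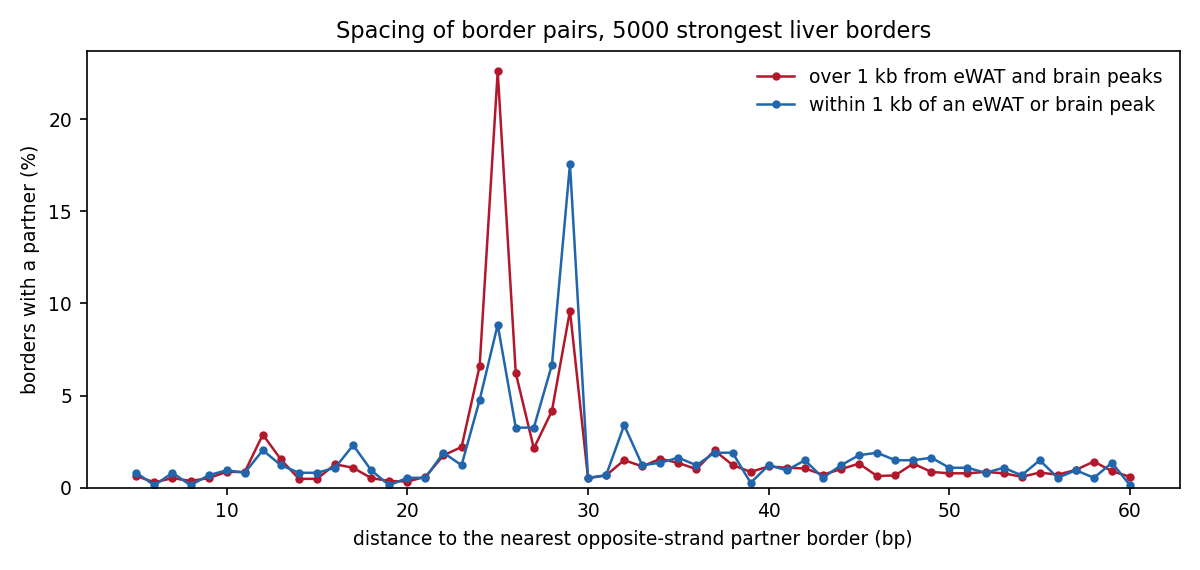
Share of borders with a partner (%) by the distance to the nearest opposite-strand partner (bp), for members and for strong borders within 1 kb of an eWAT or brain peak. The members peak at 25 bp (22.6%) with a second maximum at 29 bp (9.60%), and the borders near fat or brain peaks are highest at 29 bp.

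Several motifs also had leading positions relative to single borders, although many matches lay elsewhere. Within 60 bp of the 3788 members, HNF6 had 985 matches, of which 313 (31.8%) began 11 bp past the border on its strand and 282 (28.6%) began 8 bp past it on the other strand, together 60.4%. FOXA had 288 matches, 86 of them (29.9%) at 8 bp on the border's strand and 18 at -2 on the other. C/EBP had 768 matches, of which 85 began at 11 bp and 76 at 10 bp on the same strand and 54 at 11 bp on the other. The D-box had 225 matches, with 49 at 11 bp on the same strand and 53 at 11 bp on the other, and a match whose central bases are CG counts on both. The E-box, which reads alike on both strands, had 91 of 559 matches at 10 bp and 38 at 11 bp. The half-site had no leading position: its most frequent position held 10 of 704 matches, and that of the Rev-erb monomer element held 2 of 50. Both borders of a pair can be members, so a motif between them can be counted from each side. At a partner distance of 25 bp, the 11 bp and 8 bp positions of HNF6 are the same motif seen from its 2 borders. The positions of FOXA at 8 and -2 bp mirror each other at 12 bp, and those of the D-box at 29 bp. How many matches were counted from both sides was not measured.

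**Figure D3:**
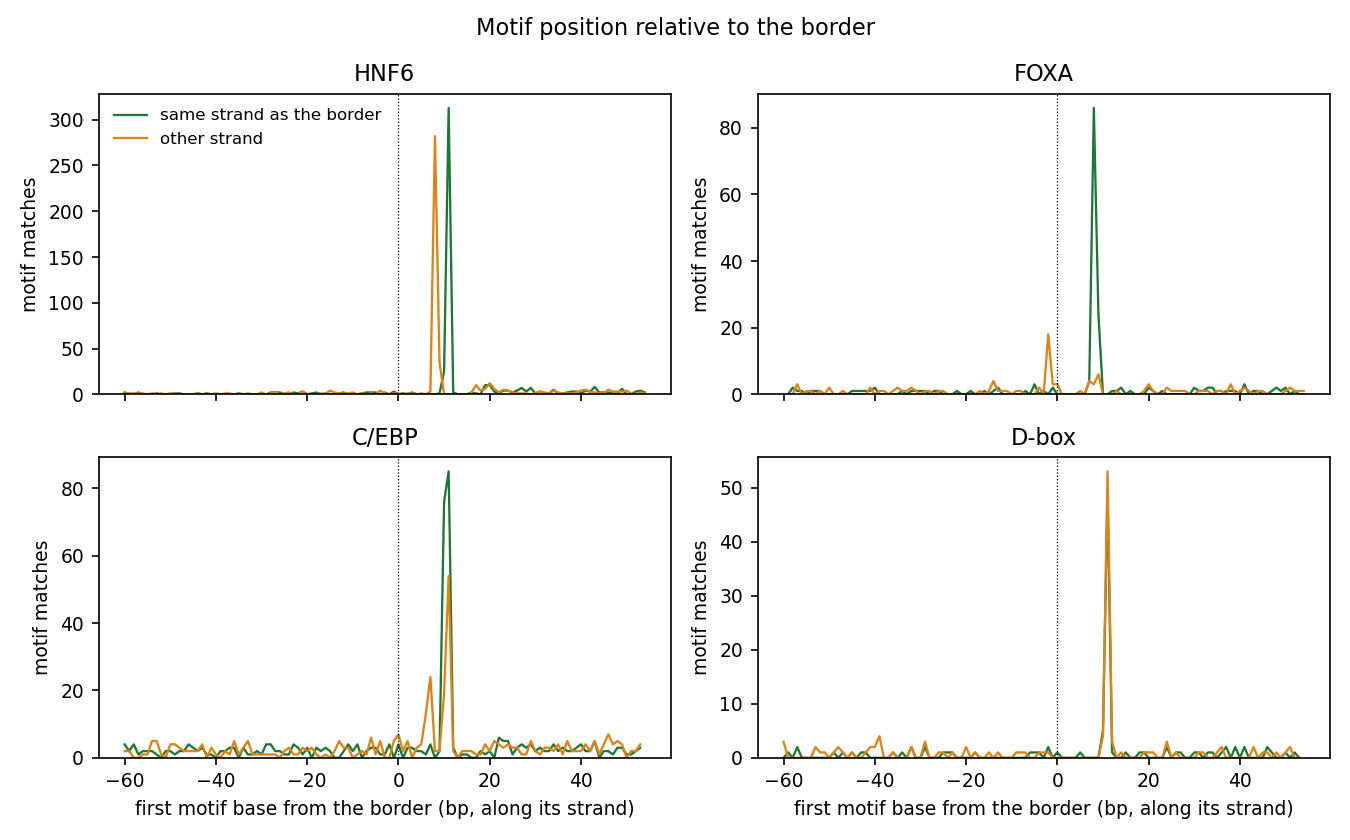
Number of motif matches by the distance of the first motif base from the border (bp, positive on the protected side), for HNF6, FOXA, C/EBP and the D-box, with matches on the border's strand and on the other drawn apart. HNF6 peaks at 11 bp (313 matches) and 8 bp (282 matches), and FOXA at 8 bp (86 matches). A motif between paired members can be counted from each border.

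Within the members, Signal was higher at HNF6 sites. The median Signal was 2.98 in the 532 sites with HNF6 and 2.67 in the 2130 without, and 82.1% against 65.7% had a partner border. Since Signal chose the members, this is given with no test. From the highest to the lowest of 5 equal classes of sites by Signal, HNF6 was at 27.02%, 22.4%, 19.5%, 16.4% and 14.7%, and either hexamer at 51.8%, 45.7%, 37.9%, 34.6% and 27.8%. The D-box was also lower in the last class (3.01%) than in the first (6.19%), and so was the E-box (9.77% and 13.1%). Neither fell at every step. FOXA was at 7.32% in the first class and 7.71% in the last, and the half-site at 13.7% and 15.8%. C/EBP stayed between 14.5% and 16.9% over the same classes. The share of sites with a partner ran from 80.7% in the first to 59.4% in the last.

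**Figure D4:**
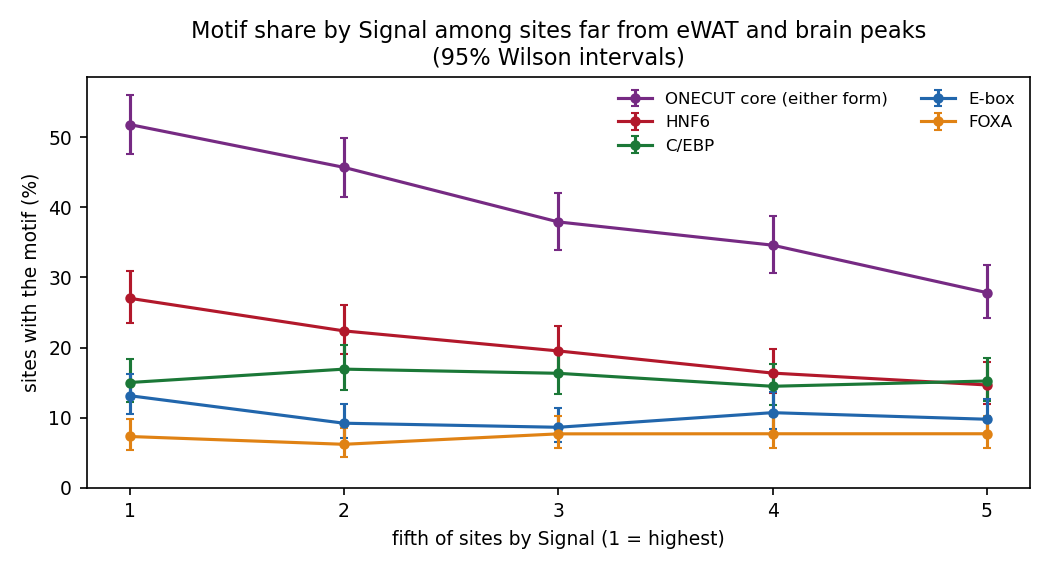
Share of member sites (%, with 95% Wilson intervals) holding each motif, by class of Signal from the highest (1) to the lowest (5). HNF6 runs from 27.02% to 14.7% and either ONECUT hexamer from 51.8% to 27.8%. The E-box is at 13.1% in the first class and 9.77% in the last, and C/EBP stays between 14.5% and 16.9%.

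Most members lay outside promoters. Of the 2662 sites, 315 (11.8%, interval 10.7 to 13.1%) lay within 1 kb of a protein-coding transcription start, 66 (2.48%) in other exons, 1074 (40.3%) in introns and 1207 (45.3%) between genes. Promoters held 295 of the 811 sites near fat or brain peaks (36.4%) and 14.1% of the weaker far sites. Against the sites near fat or brain peaks the odds ratio was 0.235 (0.194 to 0.284, two-sided Fisher's exact test, adjusted p = 2.35e-51 over 2 tests). Those sites are placed by the eWAT and brain peaks, whose own distance to starts enters this ratio. The odds ratio was 0.506 within sites of 45 to 55% GC (exact test, adjusted p = 7.42e-04) and 0.406 with promoters taken as 5 kb (adjusted p = 1.43e-27). The median distance to a start was 14039.5 bp against 4572 bp. Only 4.51% of HNF6 sites were at promoters, whereas 20.1% of member sites with an E-box were.

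The strongest sites outside repeated sequence, a set defined after the values were seen, lay mostly in introns or between genes. After the Gm5614 site came a site in an intron 2850 bp upstream of a start of Ubap1 (Signal 21.4, C/EBP). An intergenic site 68028 bp upstream of Mpp6 (19.5, C/EBP and the half-site) followed. Then came an intronic site 2523 bp past a start of Rnf43 (17.0, E-box), which encodes a ubiquitin ligase that limits Wnt signalling. The Ubap1, Mpp6 and Rnf43 sites have no HNF6 motif. The Slc45a1 site with FOXA and an E-box (16.6) came next. The strongest HNF6 site, which also holds the half-site, lay 44145 bp upstream of Ndrg1 (15.5). The 20 strongest sites in all ended with those nearest to Atp1b1 (15.02, E-box), Inhbe (14.4, C/EBP and the half-site) and Cbara1 (14.3, an ONECUT hexamer). Of the sites that follow, picked after their values were seen, that of Ppara, the receptor for fatty acids that governs hepatic fatty acid oxidation, lay 828 bp upstream of a start with a Signal of 13.95, an ONECUT hexamer and an E-box. That of Cps1, the first enzyme of the urea cycle, lay 6363 bp upstream (13.8, E-box), and that of Gys2, the liver glycogen synthase, 1820 bp downstream in an intron (13.3, E-box). St3gal4, a sialyltransferase gene, had a site with HNF6 and the half-site 10948 bp upstream of a start (13.8).

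Genes were counted where a member lay within 10 kb of a start. This held for 1166 of 22208 protein-coding genes, which is 5.25% of all genes and the level against which the lists below are to be read. Their best member had a median Signal of 2.72. For the strong borders near fat or brain peaks the count was 532 genes (2.40%), and for members with HNF6 it was 194 (0.874%). The lists were tallied without a test, and genes that lie side by side, such as the fibrinogen genes or Plin4 and Plin5, can share a border.

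Genes of the secreted products of hepatocytes had members often. Among plasma proteins, 11 of 28 genes (39.3%) had one, and 2 had a strong border near a fat or brain peak. Ahsg, encoding fetuin-A, had a member 135 bp upstream of its start (Signal 5.31), and Apoa5, an apolipoprotein that lowers plasma triglycerides, had an HNF6 member 9259 bp upstream (5.00). Trf (transferrin, 4.52) and Serpina6 (corticosteroid-binding globulin, 4.05) followed. The Trf member lay 1629.5 bp from a peak, and Trf also had a strong border near one. Among complement and coagulation genes, 10 of 30 (33.3%) had one and 1 a strong border near a fat or brain peak. The complement subunit gene C8b was highest through an intronic site with HNF6 and the half-site (6.59). Fga (5.08), Cfb (3.60, D-box) and Fgb (2.87) came next. The best members of these lists had median Signals of 2.70 and 2.60, close to that of all genes with a member.

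Amino acid and urea cycle genes had a member at 11 of 30 (36.7%), and 4 had a strong border near a fat or brain peak. Cps1 was highest (13.8). Mat1a, which makes S-adenosylmethionine, had 2 sites, the stronger an HNF6 site 8877 bp upstream (7.57). Tat, the first enzyme of tyrosine breakdown, had a C/EBP site 6141 bp upstream (4.46), and Cbs of transsulfuration had a FOXA site in an intron (3.47).

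Bile acid and cholesterol genes had a member at 10 of 29 (34.5%), 4 of them with HNF6, and none of the 29 had a strong border near a fat or brain peak. Scarb1, the HDL receptor, was highest with a site in an exon 373 bp past its start (8.67). Slc10a1, the sodium-coupled bile acid importer, had an HNF6 site 8186 bp upstream (4.21), and Nr0b2, the bile acid-induced repressor SHP, had 4 sites (highest 3.76). Insig2, which holds back the processing of SREBP proteins, had a site with HNF6 and the half-site 3461 bp upstream (3.39).

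Fatty acid and triglyceride genes had a member at 9 of 40 (22.5%), and 6 had a strong border near a fat or brain peak. Agpat2 of phospholipid and triglyceride synthesis was highest (6.32, HNF6 and the half-site), followed by Acsl1 (3.97), Mlxipl, which encodes the carbohydrate sensor ChREBP (3.49), and Pnpla3 (2.70). Glucose and glycogen genes had one at 10 of 30 (33.3%), with a median best Signal of 4.94, and 6 had a strong border near a fat or brain peak. Gys2 (13.3), Foxo3 (9.10), Slc2a2 (7.82, 5 sites) and Ppp1r3g (5.81) were highest. Slc2a2 encodes the GLUT2 glucose transporter and Ppp1r3g a glycogen-targeting subunit of protein phosphatase 1. The Gys2 and Foxo3 members lay 2373.5 and 2443.5 bp from a peak, and Foxo3 also had a strong border near one.

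Xenobiotic metabolism genes had a member at 9 of 30, with Cyp3a13 (7.85), Sult2a8 (7.05), Cyp2b10 (5.32) and Por (4.67) highest, and 4 had a strong border near a fat or brain peak. Por encodes the reductase that supplies electrons to cytochromes P450. Heme metabolism genes had one at 2 of 10, Alas1, whose product starts heme synthesis (2.47), and Cpox (2.36), and 2 had a strong border near a fat or brain peak. The Alas1 member lay 1028.5 bp from a peak, just past the limit of the rule.

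Liver transcription factor genes had a member at 7 of 20 (35.0%), 4 of them with HNF6, and none had a strong border near a fat or brain peak. Hnf4a had 3 sites, the strongest in an intron with C/EBP (11.1). Foxa3 (8.86), Hhex (7.86) and Foxa2 (3.95) each had an HNF6 site. So did Onecut2 (3.41), which encodes a relative of HNF6 and is named here outside the rule. Onecut1, the gene of HNF6 itself, had no member within 10 kb of a start. Among nuclear receptors only Ppara (5 sites, highest 13.95) and Nr1i2, the xenobiotic sensor PXR (2.28), had a member, 2 of 30 (6.67%), which is near the share of all genes, and 4 had a strong border near a fat or brain peak.

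Core clock genes had a member at 2 of 23 (8.70%), no lower than the share of all genes. These were Per1 (3.18) and Hlf (2.10), and both lay close to the limit at 1099.5 and 1260.5 bp from a peak. A strong border near a fat or brain peak was present at 16 of the 23 (69.6%), where the share of all genes was 2.40%. Within 50 kb, 8 of the 23 had a member, against 15.5% of all genes. Members were listed at 0 of 18 neuronal genes, 0 of 15 Kupffer and immune genes and 0 of 18 endothelial, stellate and cholangiocyte genes, lists too short to be told apart from the share of all genes. Of 15 adipocyte genes, 2 had one, Thrsp (6.79) and Pck1 (5.13), both also active in liver, and of 12 housekeeping genes, Pgk1 (3.75) and B2m (3.41). Of the defining hepatocyte markers, 3 of 6 had a member (Ttr, Cps1 and Hnf4a). Binding near a gene is not its expression, so these counts do not measure cell content.

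**Figure D5:**
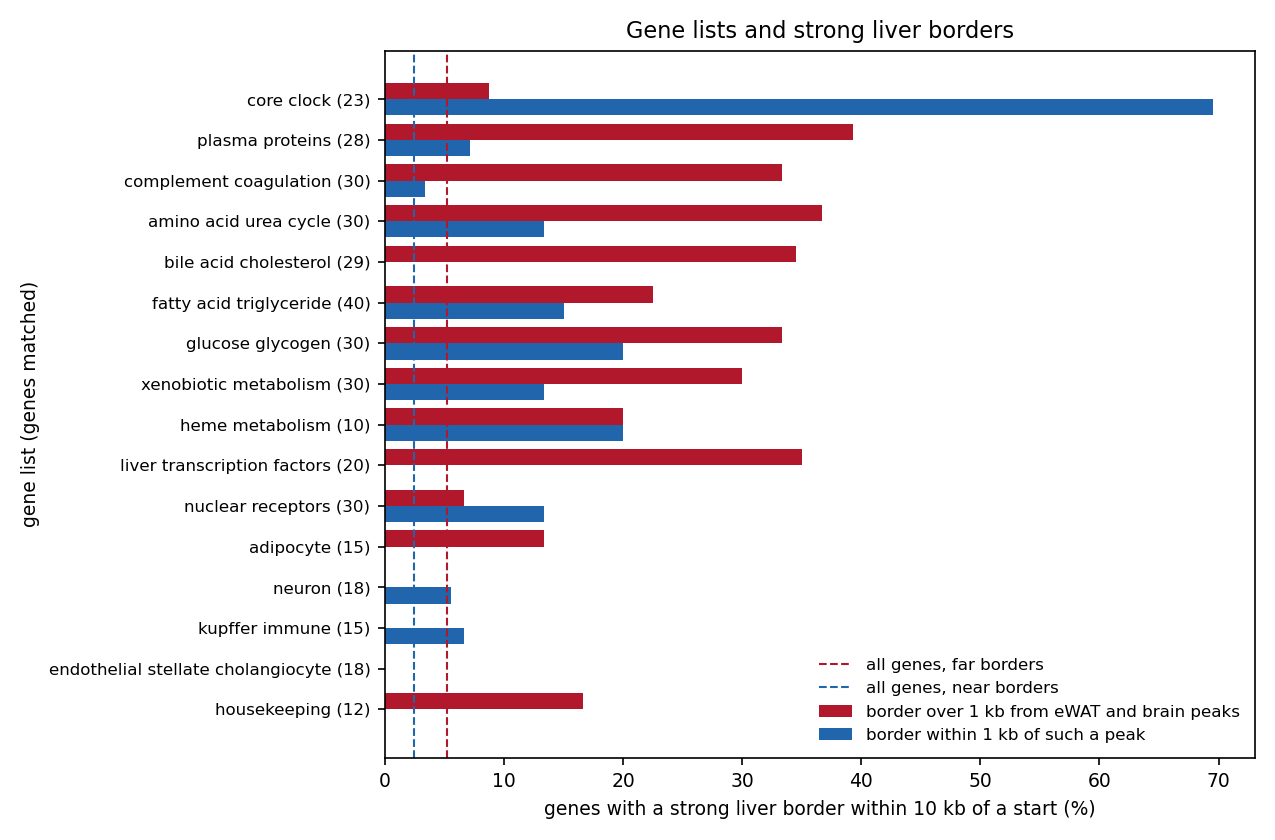
Share of 16 gene lists (%, number of matched genes in parentheses) with a strong liver border within 10 kb of a start, for members and for strong borders within 1 kb of an eWAT or brain peak; dashed lines give the shares of all protein-coding genes, 5.25% and 2.40%. Plasma protein genes reach 39.3% for the members, and core clock genes 69.6% for the borders near fat or brain peaks.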

How the data were processed

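Rev-erbα was mapped by ChIP-exo in liver and by ChIP-seq in eWAT and brain. Per the file headers, each deposited liver border carries the authors' signal, on a scale not stated, and a p-value, at most 0.05 in the deposited list. Each deposited eWAT and brain peak carries the authors' score, of which no value was used, only the peak centres. The submitters' processing notes name mm9, Bowtie 0.12.8 for ChIP-seq, Bowtie 1.1.1 for ChIP-exo and HOMER, without settings. The sources used here do not state how borders were called or whether replicates were pooled, and other thresholds would change which borders are listed. All borders fit mm9 (0 beyond a chromosome end).

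The members and gene lists were chosen with earlier results of these data known. Borders within 100 bp were merged into sites. Consensus motifs (22) were searched without mismatch on both strands, 50 bp to each side, against NCBIM37, and gene models were GENCODE vM1 (22208 protein-coding genes, 69975 starts). A match is a description, not a proven site. Shares were compared by Fisher's exact test, two-sided, with Benjamini-Hochberg adjustment over 44 motif tests or over the 2 tests of partner and promoter, with a threshold of 0.05. Wilson intervals and exact conditional odds ratio intervals cover counting error only, and neighbouring sites are not independent, so p-values are too small by an unknown amount. Of 382 list symbols, 381 matched, 6 by an older symbol. Named were the genes nearest to the 20 strongest sites, 9 of these outside repeated sequence, up to 4 genes per list by Signal and the 2 strongest sites of each of 6 motifs; exceptions are said in place, and 1 of the 17 lists is not reported here. Of these, DR1 sites, found at 5 member sites, are not shown. Scripts were run with Python 3.11.15, pandas 2.3.3, numpy 2.4.6, scipy 1.17.1 and matplotlib 3.10.9, and the tests were tested on simulated data. The other 13 groups (19 samples) were not analysed here.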

Additional observations from a re-analysis of the deposited data

Results flagged for a closer look

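Borders outside chromosomes 1 to 19 and X took no part in the comparisons, and some were high. The mitochondrial genome held 32 borders, with a highest Signal of 343.344, above the 257.359 of the strongest member, and all 32 were at or above the Signal of the weakest member. The Y chromosome held 242, of which 2 were. What the mitochondrial borders reflect was not tested.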

How the results depend on the processing

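No paired analysis was possible because each group is represented by 1 list with no columns for replicates, and for the same reason no replicate could be left out. Removing soft-masked sites, as planned, was not run because the reference sequence carries no lower-case bases; excluding repeated sequence and keeping sites of 45 to 55% GC replaced it, both chosen after seeing the data. Of 184 alternative odds ratios for 21 results over 14 settings, 151 kept their side of the threshold. None that passed it in either fit changed direction, but 9 ratios that did not pass crossed 1, among them FOXA (0.914 at 45 to 55% GC), C/EBP (0.736) and the half-site (0.993), the latter pair over 1 kb from starts. Against sites near fat or brain peaks HNF6 ranged from 2.65 to 11.7, the E-box from 0.240 to 0.550 and the promoter share from 0.221 to 0.506, all past the threshold; with borders of p at most 0.01, HNF6 was at 3.99 and the E-box at 0.409. The D-box, ETS, NRF1 and CTCF differences each missed the threshold in 4 alternatives (of 11, and of 9 for CTCF). HNF6 against weaker sites ranged from 2.05 to 2.35. The partner ratio passed in every alternative but 1, at 1.08 with borders of p at most 0.01 (exact test, adjusted p = 0.354), where the cause was not tested. Ranking 10000 borders brought FOXA (1.49), the half-site (1.31), the Rev-erb monomer element (0.485) and RevDR2 (0.166) past the threshold. Gene counts rose at 50 kb, where 15.5% of all genes have a member, and fell at 1 kb (1.43%). At 50 kb, 8 of 23 core clock genes had a member. Depth and replicate spread are unknown, so the precision they would give is not measured.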
